A study of Mus musculus with 4 samples.

Results

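The 10 genes described here were Il1a, Il1b, Il1rn, Il1r2, Il18, Il33, Il6, Il11, Osm and Lif, the cytokines, antagonist and decoy receptor of the interleukin-1 (IL-1) and interleukin-6 (IL-6) families that were chosen by gene symbol from the 32286 features counted in each library. The data were 10x Genomics 3′ single-cell RNA-seq libraries of dissociated distal jejunum from 4 adult male mice, taken 18.5 h after small intestinal ischemia and reperfusion (I/R). Control mice (n = 2) had the genotype Foxc1fl/fl;Foxc2fl/fl, and EC-Foxc-DKO mice (n = 2) had the genotype Cdh5-CreERT2;Foxc1fl/fl;Foxc2fl/fl, in which a tamoxifen-inducible Cre under an endothelial promoter removes both floxed Foxc genes from blood and lymphatic endothelial cells (BECs and LECs). All 4 mice carried the floxed alleles and underwent the surgery, so no value here is from an uninjured intestine, and the Cre transgene itself was present only in the EC-Foxc-DKO mice. The paper's methods describe tamoxifen given to adult mice by oral gavage ahead of the surgery, and do not set the genotypes apart.

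Of 22679 barcodes, 5615 cells with at most 10% mitochondrial UMIs were kept, of which 1446 and 348 came from Control and 2742 and 1079 from EC-Foxc-DKO animals. They held between 3918909 and 30487782 unique molecular identifiers (UMIs, 1 per counted mRNA molecule) per mouse. Control replicate 2 stood apart, with a median mitochondrial share of 54% over all barcodes against 15% to 25.8% in the other mice, and values from that mouse are named below. Foxc1 gave 1 and 5 UMIs in BEC-like cells of Control and 1 and 0 in those of EC-Foxc-DKO animals, and Foxc2 gave no UMI in any kept cell, so the deletion could not be checked at this depth. The same barcode occurred in 2 libraries in 51 cases, and 24 kept cells carried such a barcode.

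IL-1 family cytokines act early in sterile injury. IL-1α (Il1a) and IL-1β (Il1b) bind the same receptor, IL-1 receptor antagonist (Il1rn) occupies it without signaling, and the type 2 receptor (Il1r2) is a decoy that binds ligand without a signaling domain. IL-18 and IL-33 use receptors of their own. IL-1β and IL-18 are made as precursors that inflammasome caspases cut, and IL-33 is a nuclear alarmin released by damaged barrier and stromal cells. The IL-6 family, with Il6, Il11, Osm (oncostatin M) and Lif (leukemia inhibitory factor), shares the signaling subunit gp130 (Il6st) and is linked to acute-phase responses and to epithelial repair. These are properties of the proteins, whereas the measurements below are of mRNA.

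The start sites of the 10 genes lie on chromosomes 1, 2, 5, 7, 9, 11 and 19. In the GENCODE M21 annotation of GRCm38 (mm10), Il1a (chr2:129299610-129309972) and Il1b (chr2:129364570-129371139) sit on the minus strand with 54597 bases between them, and Osm (chr11:4236420-4241026) and Lif (chr11:4257557-4272514) sit on the plus strand with 16530 bases between them. The RefSeq promoter table (GRCm38.p6) held 9 of the 10 genes (all but Osm). The 250 bases before the start sites are shown, 5′ to 3′ on the gene's own strand, for Il1b and Il18, which had separate source cells below, for the 2 separate starts of Il1rn, which had both myeloid and epithelial sources, and for Il6, the only member window with a match to the NF-kB motif. Capitals mark the letters of a motif.
Il1b, chr2:129371140-129371389, minus strand: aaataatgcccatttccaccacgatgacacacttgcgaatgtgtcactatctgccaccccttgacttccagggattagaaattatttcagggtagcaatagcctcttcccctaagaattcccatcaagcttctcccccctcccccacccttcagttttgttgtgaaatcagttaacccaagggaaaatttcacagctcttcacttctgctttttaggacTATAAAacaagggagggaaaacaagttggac
Il18, chr9:50554450-50554699, plus strand: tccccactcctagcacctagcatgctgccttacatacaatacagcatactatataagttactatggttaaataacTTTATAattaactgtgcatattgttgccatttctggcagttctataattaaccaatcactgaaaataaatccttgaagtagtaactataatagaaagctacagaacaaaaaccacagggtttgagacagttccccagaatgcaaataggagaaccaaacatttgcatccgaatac
Il1rn, first start, chr2:24336610-24336859, plus strand: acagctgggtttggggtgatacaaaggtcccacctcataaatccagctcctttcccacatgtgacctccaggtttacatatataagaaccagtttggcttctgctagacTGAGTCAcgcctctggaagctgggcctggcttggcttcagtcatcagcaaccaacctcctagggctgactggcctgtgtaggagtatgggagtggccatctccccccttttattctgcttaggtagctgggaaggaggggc
Il1rn, second start, chr2:24345041-24345290, plus strand: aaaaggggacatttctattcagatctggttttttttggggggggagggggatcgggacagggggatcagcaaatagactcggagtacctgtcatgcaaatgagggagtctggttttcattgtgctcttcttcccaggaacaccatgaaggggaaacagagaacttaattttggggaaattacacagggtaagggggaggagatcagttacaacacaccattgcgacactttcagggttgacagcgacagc
Il6, chr5:30012864-30013113, plus strand: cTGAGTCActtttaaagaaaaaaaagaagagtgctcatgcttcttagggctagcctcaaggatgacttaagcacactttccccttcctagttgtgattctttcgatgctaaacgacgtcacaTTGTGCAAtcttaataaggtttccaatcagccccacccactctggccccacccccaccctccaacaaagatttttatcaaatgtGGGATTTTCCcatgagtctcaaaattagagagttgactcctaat

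The motifs searched on both strands were a TATA box (TATAAA, in 12.4% of 32851 such windows), AP-1 (TGANTCA, 6.75%), a PU.1 core (GAGGAA, 23.3%), C/EBP (TTGCNNAA, 9.56%) and the 10-letter NF-kB motif (0.356%). The Il1b window held a TATA box whose first base was at -31 from the start site, and the Il18 window held 1 at -175. The first Il1rn start held an AP-1 match at -141 and the second start held none of the 5 motifs. Il6 held AP-1 at -249, C/EBP at -128 and NF-kB at -44. These are matches of letters in the reference, not measured sites, and 3′ counts cannot tell which Il1rn start was used.

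Cells were grouped by clustering with the 10 genes left out of the clustering and named X-like from fixed marker lists, which gave 22 named types. The neutrophil-like cells held all 10 neutrophil markers in each of the 3 mice that had them, and the macrophage-like cells held all 12 macrophage markers in each of the 4 mice. Values are given in the order Control replicate 1, Control replicate 2, EC-Foxc-DKO replicate 1 and EC-Foxc-DKO replicate 2. There were 30, 0, 20 and 6 neutrophil-like cells, so Control replicate 2 gives no neutrophil value. Macrophage-like cells numbered 97, 41, 137 and 99. A level below is counts per 1000000 UMIs (CPM) of the summed cells of a type in 1 mouse, and intervals are 95% and cover counting error only. In neutrophil-like cells the 10 neutrophil markers summed to 44981 CPM in Control replicate 1, 91870 in EC-Foxc-DKO replicate 1 and 281101 in EC-Foxc-DKO replicate 2. The neutrophil-like cells of these mice thus differed widely in marker level, and its part in their member values was not tested.

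The members fell into a myeloid, an epithelial and a mixed set by where their UMIs were. Macrophage-like and neutrophil-like cells together held most UMIs of Il1a (74.7% and 15.2% of 158 UMIs), Il1b (64.5% and 32.0% of 10304), Il1r2 (20.2% and 69.2% of 461) and Osm (93.5% and 3.95% of 1799), and macrophage-like cells held 84.5% of the 71 Il6 UMIs. Bottom enterocyte-like cells, the epithelium of the villus base, held 69.4% of the 17829 Il18 UMIs. Il1rn was split between Sprr-high epithelial cell-like cells (51.7% of 1780) and macrophage-like cells (38.4%), and Il33 was spread over Sprr-high (30.2% of 1699), bottom enterocyte-like (28.7%) and middle enterocyte-like (14.8%) cells, with its highest level per cell type in LEC-like cells. EC-Foxc-DKO replicate 2 supplied 915 of the Il1rn and 921 of the Il33 UMIs. As a mean over mice, macrophage-like cells held 47.95 ± 17.3% of a mouse's Il1rn UMIs (SD, n = 4) and Sprr-high cells 43.3 ± 14.03%. For Il33 that mean was 23.25 ± 12.1% in bottom enterocyte-like, 18.5 ± 18.9% in Sprr-high, 18.1 ± 20.7% in middle enterocyte-like, 13.99 ± 16.2% in fibroblast-like and 11.6 ± 19.8% in LEC-like cells. The order of the sources of both genes thus depended on how the mice were weighted, and it was within their spread. For Il1r2 the mean over mice was 43.1 ± 40.3% in macrophage-like and 47.0 ± 38.4% in neutrophil-like cells, also within the spread. Control replicate 2, with no neutrophil-like cell, held 3 Il1r2 UMIs, all in macrophage-like cells. EC-Foxc-DKO replicate 2 held 31 in macrophage-like and 27 in neutrophil-like cells. Cell types come from clusters of the same cells, so these sources are a description with no test.

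**Figure D1:**
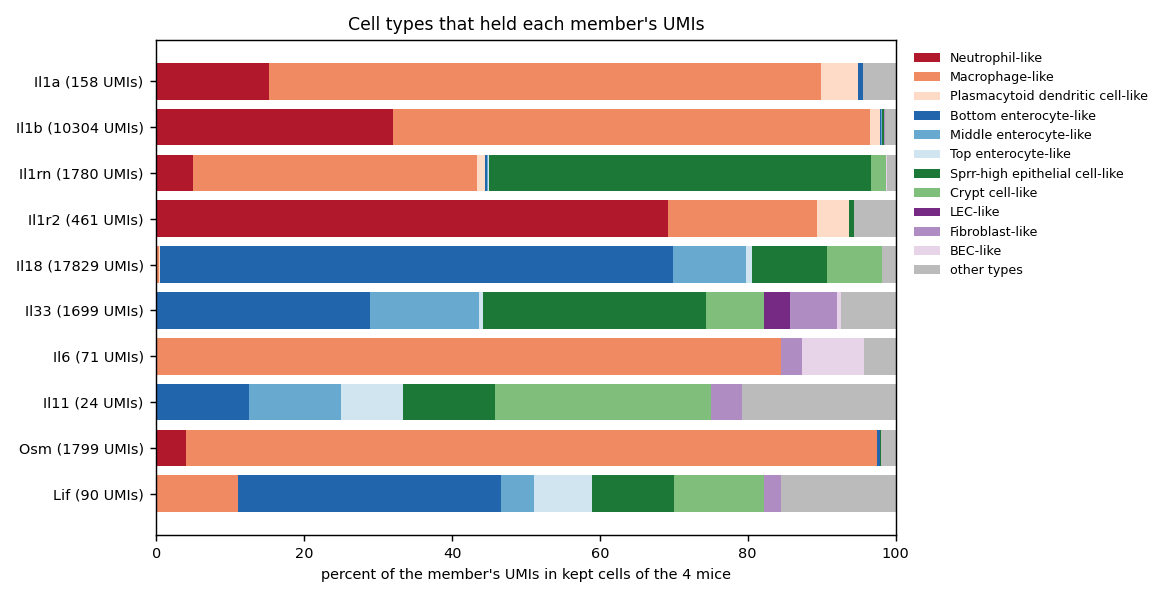
Horizontal bars give, for each of the 10 genes, the percent of its UMIs in kept cells of the 4 mice that fell in each cell type, with the UMI total beside the name. Il1b, Il1a, Il1r2 and Osm are mostly macrophage-like and neutrophil-like, Il18 is mostly bottom enterocyte-like (69.4%), and Il1rn and Il33 are divided.

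The comparison of genotypes asked whether the loss of endothelial Foxc1 and Foxc2 moved these cytokines in any cell type. UMI counts were summed per mouse and type and tested with edgeR's quasi-likelihood test, with Benjamini-Hochberg adjustment over all genes of a type and a threshold of 0.05. Of the 10 members, 8 passed the filter on low counts in at least 1 of 11 types, giving 29 values, of which 22 were higher in EC-Foxc-DKO mice, 6 had an unadjusted p under 0.05 and 2 passed the threshold. The 29 values repeat the same genes and mice across types, so the count of directions is no test of a general rise. In macrophage-like cells, with 4 mice, 1 of 6 members and 152 of all 6938 genes had an unadjusted p under 0.05 by edgeR. Il11 and Il6 passed the filter in no single type. The 2 that passed were Il1b in plasmacytoid dendritic cell-like cells and Il33 in LEC-like cells. DESeq2 called 0 of the same 29 values, with 3 at an unadjusted p under 0.05.

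Those counts stand beside the share of all tested genes called in the same fits. It was 0% in bottom enterocyte-like, crypt cell-like, goblet cell-like, macrophage-like, Sprr-high and tuft cell-like cells, where no member was called either. The share was 0.0346% in top and 0.101% in middle enterocyte-like cells. In the fits that rested on 3 mice with few cells it was 5.01% (neutrophil-like), 1.97% (LEC-like) and 1.89% (plasmacytoid dendritic cell-like), so both member calls came from types where a larger share of all genes was called. Over all kept cells summed per mouse, edgeR called 0 of 9 members, against 0% of all genes, with 0 at an unadjusted p under 0.05 and 0 by DESeq2. In a fit on 3 mice 1 group is a single mouse, whose spread is taken to be that of the other group.

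Some member values below passed the threshold only under another setting, where the share of all genes called also differed. Without Control replicate 1 it was 5.76% in macrophage-like cells, and without Control replicate 2 it was 0.575%. Without EC-Foxc-DKO replicate 1 it was 9.25% in bottom enterocyte-like cells. With no filter on low counts it was 0.307% in macrophage-like, 0.552% in Sprr-high, 0.142% in tuft cell-like, 0.392% in enteric glia-like and 0.129% in plasmacytoid dendritic cell-like cells. Enteric glia-like cells, at 0% otherwise, had 1.89%, 0.731% and 1.62% without Control replicate 1, EC-Foxc-DKO replicate 1 and EC-Foxc-DKO replicate 2. With doublets removed it was 0.911% in goblet cell-like and 1.79% in plasmacytoid dendritic cell-like cells, where Il1b was called under both settings.

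**Figure D2:**
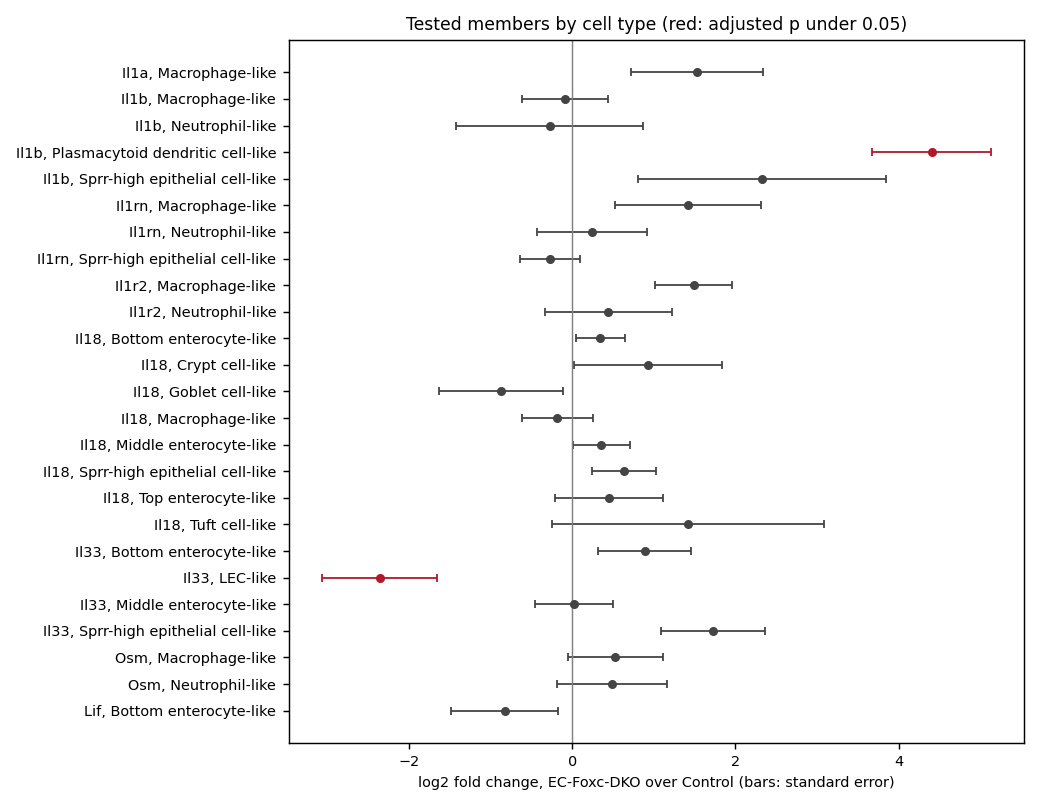
Points give the log2 fold change, EC-Foxc-DKO over Control, of a member in a cell type, and bars its approximate standard error, for the 25 of 29 tested values whose standard error was under 2. Only Il1b in plasmacytoid dendritic cell-like cells (4.40) and Il33 in LEC-like cells (-2.36) are drawn in red as past the threshold, and the other values, some with bars clear of 0, did not pass it.

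Il1b, the inducible IL-1 agonist, reached its highest level in neutrophil-like cells, at 16778, 21142 and 8346 CPM in Control replicate 1 and EC-Foxc-DKO replicates 1 and 2. The 2 EC-Foxc-DKO values lay on either side of the Control value, and the log2 fold change of Il1b was -0.28 (SE 1.15, adjusted p = 0.996 by edgeR). Macrophage-like cells had 3065, 1165, 1326 and 2722 CPM of Il1b. The groups overlapped fully, with 1 high and 1 low mouse in each, and the fold change was -0.09 on the log2 scale (SE 0.53, adjusted p = 0.999 by edgeR). Its direction turned without Control replicate 1 (0.80) or without EC-Foxc-DKO replicate 1 (0.36).

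Among macrophage-like cells, 243 of 374 (65.0%, exact interval 59.9 to 69.8) had an Il1b UMI. Of the 334 cells with at least 1000 UMIs, 53.9% did when thinned to 1000 UMIs. All thinned shares in this text leave out cells under that depth. In follicular B cell-like cells, which should lack Il1b, thinning left 0.2495% with a UMI in EC-Foxc-DKO replicate 1, where 10 of 1204 cells had 1 before thinning, and 0 of 123, 17 and 34 in the other mice. Median depth was 7929 UMIs in macrophage-like and 3246.5 in follicular B cell-like cells. The macrophage-like class joined a cluster of 297 cells led by Ccl7, which codes for a monocyte-attracting chemokine, with a shallow cluster of 77 cells led by Gm15056. The Ccl7-led cluster carried the Il1b signal, at 3157, 1188, 1383 and 2763 CPM, and all macrophage-like UMIs of Osm and Il6.

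Outside these sources, large amounts of Il1b came from single cells. In tuft cell-like cells 1 of 66 cells, from EC-Foxc-DKO replicate 1, held all 75 Il1b UMIs, and it also held the type's 7 UMIs of Il1rn and its 7 of Il1r2. The tuft cell-like cells of that mouse had UMIs of 9 of 10 neutrophil markers, all but Ly6g, with a summed level of 370.3 CPM, and 0 in the other 3 mice. In enteric glia-like cells 1 of 92 cells, from Control replicate 2, held all 46 Il1b UMIs. Il1b was called in tuft cell-like cells in the fit with no filter (adjusted p = 0.000901 by edgeR), and in enteric glia-like cells with no filter (adjusted p = 1.25e-08 by edgeR) and without Control replicate 1, EC-Foxc-DKO replicate 1 or EC-Foxc-DKO replicate 2. Each of these calls rested on that 1 cell.

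In plasmacytoid dendritic cell-like cells, the interferon-making dendritic cells, Il1b passed the threshold in a fit of 1 Control mouse against 2 EC-Foxc-DKO mice. Il1b stood at 66.8 CPM in Control replicate 1 (8 cells, 5 UMIs), 105 in EC-Foxc-DKO replicate 1 (18 cells, 19 UMIs) and 2675 in EC-Foxc-DKO replicate 2 (7 cells, 122 UMIs), and Control replicate 2, with 2 cells and 0 UMIs, did not enter. The groups did not overlap, but the first EC-Foxc-DKO mouse was within counting error of the Control mouse (interval 63.0 to 163 against 21.7 to 156). The log2 fold change was 4.40 (SE 0.73, adjusted p = 4.69e-07 by edgeR). DESeq2 gave 4.50 (SE 2.65, adjusted p = 1.00), and without EC-Foxc-DKO replicate 2 the ratio of the remaining mice was 0.65 on the log2 scale, with no test possible. The call also ended with all variable genes in the clustering (3.73, adjusted p = 0.463 by edgeR) and with the mitochondrial share taken over all features (4.39, adjusted p = 0.988 by edgeR). Only 8 of 35 cells had an Il1b UMI, 5 cells held 98.0% of the UMIs and 1 cell held 34.9%.

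Neutrophil markers moved with this Il1b difference, while the macrophage marker sum was highest in the other EC-Foxc-DKO mouse. The summed level of the 10 neutrophil markers in the same plasmacytoid dendritic cell-like cells was 0 CPM in Control replicate 1, 11.01 in EC-Foxc-DKO replicate 1 and 614 in EC-Foxc-DKO replicate 2, where 4 of 10 had a UMI and Csf3r, Cxcr2, Retnlg, Mmp9, Ly6g and Clec4d were at 0. The 12 macrophage markers summed to 574, 4239 and 811 CPM, with 4, 10 and 6 of them detected and Mrc1 and Fcgr1 at 0 in all 3 mice. The plasmacytoid markers themselves, all 10 detected, summed to 10948, 8738 and 5285 CPM. The part of these markers in the Il1b result was not tested.

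Il1a, the IL-1 agonist that is also active as a precursor, was far sparser. Neutrophil-like cells had 129, 118 and 121 CPM of Il1a from 16, 6 and 2 UMIs, with no Control replicate 2 value. Macrophage-like cells had 28.1, 5.72, 20.9 and 99.7 CPM, so EC-Foxc-DKO replicate 2 was highest and the other EC-Foxc-DKO mouse fell between the Control mice. The log2 fold change of Il1a in macrophage-like cells was 1.53 (SE 0.81, adjusted p = 0.999 by edgeR), and without Control replicate 1 it was 3.28 (SE 0.77, adjusted p = 0.00118 by edgeR). Across the 22 named types the level of Il1a varied with that of Il1b (Pearson r = 0.973 of log2 mean CPM + 10, a description over types that share libraries).

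Il1rn, the receptor antagonist, had its highest mean level in neutrophil-like cells (539 ± 218 CPM, SD, n = 3), then macrophage-like (223 ± 234, n = 4) and Sprr-high epithelial cell-like cells (135 ± 69.7, n = 4), and the latter 2 did not differ beyond their spread. In macrophage-like cells the mice had 202, 28.6, 103 and 558 CPM of Il1rn. Control replicate 2 was lowest and EC-Foxc-DKO replicate 2 highest, with 63 of its 99 cells carrying a UMI (63.6%, 32.0% when thinned) against 4 of 41 (9.76%, 1.65%) in Control replicate 2. The log2 fold change of Il1rn was 1.42 (SE 0.89, adjusted p = 0.999 by edgeR). It turned to -0.24 without EC-Foxc-DKO replicate 2 and became 3.51 (SE 0.52, adjusted p = 7.32e-09 by edgeR) without Control replicate 1, so the value rested on which mice were present. The 12 macrophage markers, all detected, summed to 7665, 20647, 10409 and 10252 CPM in these cells, highest in the mouse with the least Il1rn. The neutrophil markers summed to 424, 369, 281.5 and 727 CPM, highest in EC-Foxc-DKO replicate 2, with 8, 5, 7 and 7 of 10 detected and Ly6g at 0 in all 4 mice. Their part in the Il1rn values was not tested.

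The epithelial source of Il1rn was the Sprr-high population, surface cells that express small proline-rich and other stress-associated epithelial genes. They had 119, 237, 79.9 and 105 CPM of Il1rn, where the value of Control replicate 2 came from 2 cells and 4 UMIs. With that mouse left out the Control value lay above both EC-Foxc-DKO values, and the log2 fold change was -0.27 (SE 0.37, adjusted p = 1.00 by edgeR). Il1rn UMIs were found in 77 of 275 of these cells (28.0%, 7.84% when thinned), and 5 cells held 31.3% of them. In crypt cell-like cells Il1rn was at 0 to 5.02 CPM and in bottom enterocyte-like cells it gave 6 UMIs in 749 cells. The summed macrophage markers in Sprr-high cells were 83.03, 110.4 and 91.6 CPM in the 3 mice with at least 5 such cells. Of the 12 macrophage markers 8, 4 and 9 were detected, with Adgre1 and Fcgr1 at 0 in all 3 mice. The neutrophil markers summed to 20.9, 15.3 and 270.2 CPM, highest in EC-Foxc-DKO replicate 2. Of these 10 markers 3, 1 and 8 were detected, with Csf3r and Clec4d at 0 in all 3 mice. In EC-Foxc-DKO replicate 1 all 17 UMIs were of Ly6g. The part of these markers in the Il1rn values was not tested.

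The ratio of agonist to antagonist UMIs needs no scaling by depth, since both genes were counted in the same cells. Macrophage-like cells held 15.2, 40.7, 12.8 and 4.88 Il1b UMIs per Il1rn UMI, and neutrophil-like cells held 36.5, 56.8 and 10.6 in the 3 mice that had them. EC-Foxc-DKO replicate 2 had the lowest ratio in both types. In macrophage-like cells the EC-Foxc-DKO ratios were below both Control ratios, but the ratio of Control replicate 2 rested on 10 Il1rn UMIs. Over all kept cells the ratio was 8.37, 32.8, 10.99 and 2.23, so the groups overlapped.

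**Figure D3:**
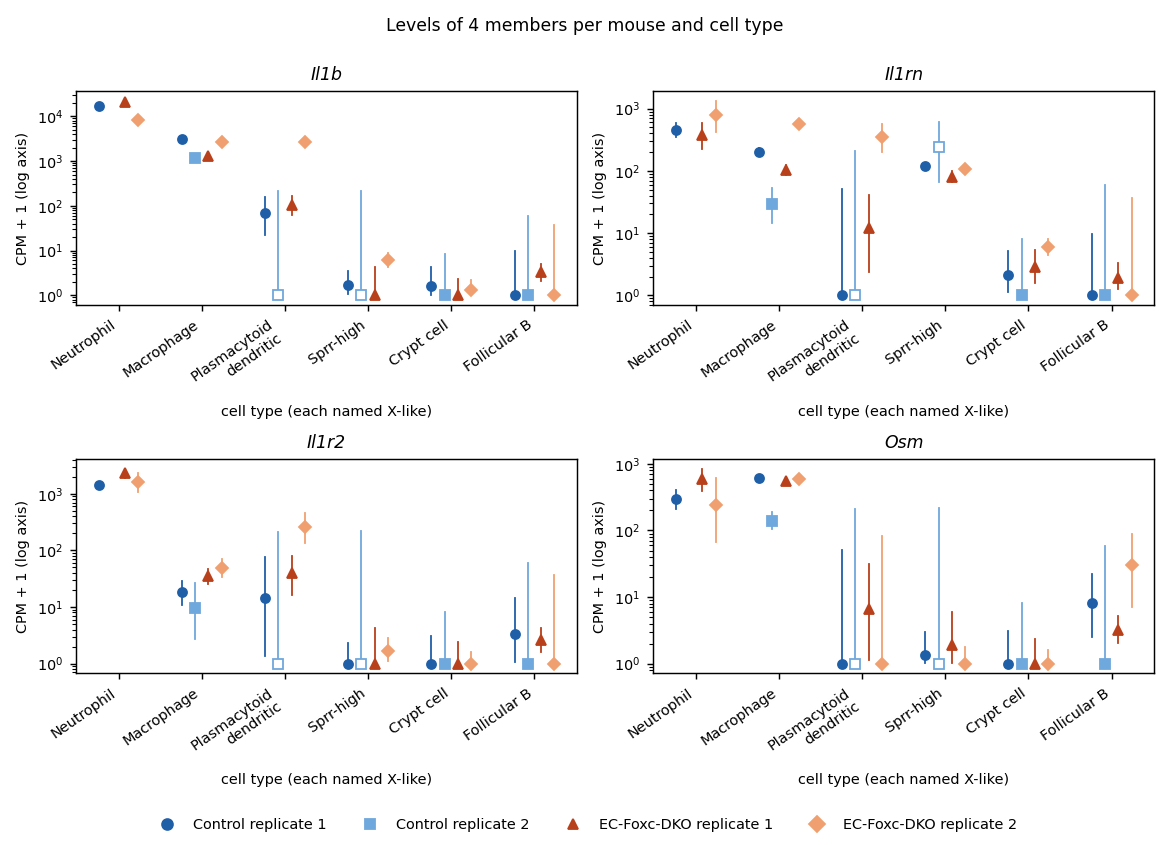
Points give the level of Il1b, Il1rn, Il1r2 and Osm in each mouse and cell type, as CPM + 1 on a log axis, with 95% counting intervals, and open symbols mark mice with fewer than 5 cells of the type. Il1b and Il1r2 are highest in neutrophil-like cells, Osm is similar in neutrophil-like and macrophage-like cells, and Il1rn has an added level near 100 CPM in Sprr-high cells.

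Il1r2, the decoy receptor, was the member most concentrated in neutrophil-like cells, at 1411, 2290 and 1633 CPM, against 17.3, 8.58, 34.5 and 48.3 CPM in macrophage-like cells. Both EC-Foxc-DKO mice lay above the Control mouse in neutrophil-like cells, by a log2 fold change of 0.44 (SE 0.78, adjusted p = 0.996 by edgeR). In macrophage-like cells both EC-Foxc-DKO mice also lay above both Control mice, from 43 and 31 UMIs against 16 and 3. That log2 fold change of Il1r2 was 1.49 (SE 0.47, unadjusted p = 0.0126 and adjusted p = 0.999 by edgeR), which did not pass the threshold. Of 374 macrophage-like cells, 47 had an Il1r2 UMI (12.6%, 3.28% when thinned), against 5 of 1378 follicular B cell-like cells (0.363%, 0.0713%).

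The difference of the genotype change between neutrophil-like and macrophage-like cells was tested in a model with a term for each mouse and a genotype-by-type term, over the 3 mice with both types. None of the 7 members tested passed the threshold and none had an unadjusted p under 0.05, against 0.314% of all genes called, and DESeq2 was not run on it. The interaction was 0.14 for Il1b (SE 0.82), -0.22 for Il1rn (SE 0.97), -0.96 for Il1r2 (SE 0.98) and 0.44 for Osm (SE 0.99) on the log2 scale, each with an adjusted p of 1.00 by edgeR. The standard errors were as large as the differences or larger.

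Il18, whose product drives interferon-γ from lymphocytes, was an epithelial transcript with a gradient along the villus. Bottom enterocyte-like cells had 398, 446, 390.1 and 648 CPM, middle enterocyte-like cells 114, 222, 164 and 248, and top enterocyte-like cells 17.4, 60.6, 22.0 and 107. The order bottom, middle, top held in each of the 4 mice, although the second replicate of each group had only 13 and 6 middle and 5 and 5 top cells. An Il18 UMI was present in 741 of 749 bottom enterocyte-like cells (98.9%) and in 37.2% of them when thinned to 1000 UMIs, against 11.6% of middle and 1.68% of top cells. In follicular B cell-like cells, at a median of 3246.5 UMIs against 31327 in bottom enterocyte-like cells, 20 UMIs were spread over 20 of 1378 cells.

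Between genotypes Il18 did not pass the threshold in any of 8 types. The bottom enterocyte-like values of EC-Foxc-DKO mice lay below and above both Control values, with a log2 fold change of 0.35 (SE 0.30, adjusted p = 0.997 by edgeR). It was -0.13 without EC-Foxc-DKO replicate 2 and 0.69 (SE 0.19, adjusted p = 0.0185 by edgeR) without EC-Foxc-DKO replicate 1, so its direction rested on EC-Foxc-DKO replicate 2. Sprr-high cells had 148, 178 and 258 CPM of Il18 in Control replicate 1 and the EC-Foxc-DKO mice, a log2 fold change of 0.64 (SE 0.40, adjusted p = 1.00 by edgeR). In crypt cell-like cells Il18 was at 104, 1.94, 71.7 and 154 CPM, with 1 UMI in the 15 crypt cells of Control replicate 2.

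EC-Foxc-DKO replicate 2 had the highest Il18 level of the 4 mice in bottom, middle and top enterocyte-like, Sprr-high and crypt cell-like cells. In none of these types did EC-Foxc-DKO replicate 1 exceed both Control mice other than in Sprr-high cells, where Control replicate 2 had 2 cells. The 2 EC-Foxc-DKO mice also differed in makeup: bottom enterocyte-like cells were 5.40% and 31.9% of kept cells and Sprr-high cells 1.17% and 16.6%. In the Control mice these shares were 15.5% and 9.48%, and 4.29% and 0.575%. The bottom enterocyte-like class was itself mixed. At a clustering resolution of 1.0, its part led by Slc5a4a had 129, 13, 85 and 4 cells, and its part led by Fabp6 had 44, 5, 27 and 155. With the mitochondrial share over all features, 172 of the 173 cells of a part led by Saa1 were from EC-Foxc-DKO replicate 2. The part of these differences in the Il18 values, and in the Il33 values below, was not tested.

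Il33, the nuclear alarmin, had a different set of sources. Its highest level was in LEC-like cells (448 ± 281 CPM, SD, n = 3), followed by fibroblast-like cells, at 145 CPM in Control replicate 2 and 266 in EC-Foxc-DKO replicate 1, with 0 UMIs in the 2 and 1 fibroblast-like cells of the other mice. BEC-like cells, the other endothelial type, had 6.82, 17.8, 13.5 and 0 CPM from 11 UMIs in all. Sprr-high cells had 20.1, 119, 30.5 and 90.1 CPM, where the second value came from 2 UMIs. Macrophage-like cells gave 2 UMIs in 374 cells. An unnamed group of 9 cells led by Lrrn4 and Msln, genes of mesothelium, gave 30 Il33 UMIs in 8 of its cells.

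In LEC-like cells, one of the endothelial types in which the Cre is active, Il33 passed the threshold in a fit of 2 Control mice against 1 EC-Foxc-DKO mouse. The Control mice had 545 CPM (6 cells, 13 UMIs, interval 290.0 to 931) and 669 CPM (10 cells, 42 UMIs, 482 to 904), and EC-Foxc-DKO replicate 1 had 132 CPM (5 cells, 5 UMIs, 42.7 to 307), while EC-Foxc-DKO replicate 2 had no LEC-like cell. The values did not overlap, and the counting interval of the EC-Foxc-DKO mouse reached into that of Control replicate 1. The log2 fold change of Il33 was -2.36 (SE 0.70, adjusted p = 0.0420 by edgeR). With DESeq2 the adjusted p was 0.999 (log2 fold change -2.34, SE 1.299), with no filter on low counts 0.940 and with a mitochondrial limit of 20% 0.903.

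A single EC-Foxc-DKO mouse with 5 LEC-like cells carries that Il33 result. Of those cells 4 had an Il33 UMI, against 3 of 6 and 7 of 10 in the Control mice. The Control side was concentrated too. A single cell of Control replicate 2, with a depth of 23535 UMIs, held 17 of the 60 Il33 UMIs of the type, and 5 cells held 76.7%. All 7 LEC markers were detected in each mouse, and their sum was also lowest in the EC-Foxc-DKO mouse, at 11885 CPM against 21285 and 27208. Fibroblast markers summed to 0, 31.9 and 52.6 CPM, with Dcn, Col1a1, Col3a1, Lum, Pdgfra, Adamdec1, Ccl11 and Dpt at 0 in all 3 mice. BEC markers summed to 3101, 4652 and 4102 CPM, with Ly6c1 at 0. The part of the lower marker level in the Il33 result was not tested.

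In epithelial cells Il33 showed the spread between the EC-Foxc-DKO mice seen for Il18. Bottom enterocyte-like cells had 13.4, 8.82, 9.53 and 32.8 CPM, and the log2 fold change was 0.89 (SE 0.57, adjusted p = 0.997 by edgeR), -0.39 without EC-Foxc-DKO replicate 2 and 1.46 (SE 0.27, adjusted p = 0.000458 by edgeR) without EC-Foxc-DKO replicate 1. Sprr-high cells had a log2 fold change of 1.72 (SE 0.64, unadjusted p = 0.0224, adjusted p = 1.00 by edgeR), which with no filter had an adjusted p of 0.0409. Middle enterocyte-like cells had 21.1, 9.53, 15.3 and 44.3 CPM, a log2 fold change of 0.02 (SE 0.48). In crypt cell-like cells 125 of the 133 Il33 UMIs were from EC-Foxc-DKO replicate 2, and in goblet cell-like cells 23 of 24. Of those 24, 1 goblet cell-like cell of that mouse held 16.

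**Figure D4:**
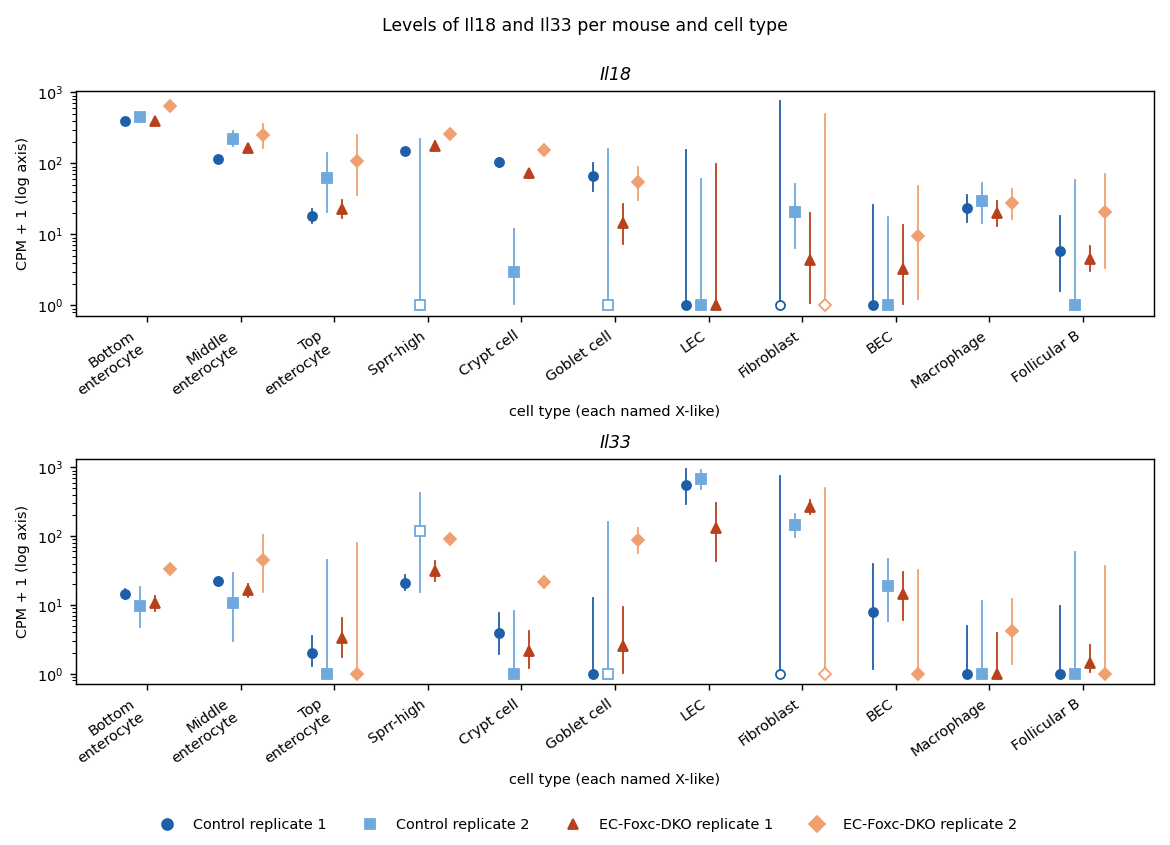
Points give the level of Il18 and Il33 in each mouse and cell type, as CPM + 1 on a log axis, with 95% counting intervals, and open symbols mark mice with fewer than 5 cells of the type. Il18 falls from bottom to top enterocyte-like cells in each mouse, Il33 is highest in LEC-like cells (545 and 669 CPM in Control, 132 in EC-Foxc-DKO), and EC-Foxc-DKO replicate 2 has the highest epithelial values of most types.

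Osm, a gp130 cytokine made by activated myeloid cells, had 92.0, 100, 92.4 and 97.2% of each mouse's UMIs in macrophage-like cells. Their level of Osm was 621, 140.2, 546 and 587 CPM. Control replicate 2 was low and the other 3 mice were close, so the groups overlapped, with a log2 fold change of 0.53 (SE 0.58, adjusted p = 0.999 by edgeR). It was -0.16 without Control replicate 2 and 2.02 (SE 0.45, adjusted p = 0.000481 by edgeR) without Control replicate 1. Neutrophil-like cells had 298, 587 and 242 CPM, which did not differ from macrophage-like cells beyond the spread (376 ± 185, n = 3, and 474 ± 224, n = 4). Of macrophage-like cells 55.9% had an Osm UMI (29.5% when thinned), against 1.16% (0.414%) of follicular B cell-like cells.

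Il6 was rare. Its 71 UMIs included 60 from macrophage-like cells, 5, 1, 11 and 43 UMIs in the 4 mice, which is 5.40, 2.86, 8.82 and 66.96 CPM. Both EC-Foxc-DKO mice lay above both Control mice, but the first was within the counting interval of Control replicate 1 (1.75 to 12.6) and the second carried most of the UMIs, in 18 of 99 cells. Il6 did not pass the filter in this type. It entered 4 other fits of macrophage-like cells. In 3 of them it was called, and the fold change on the log2 scale was 2.92 (SE 0.64, adjusted p = 0.00312 by edgeR) with no filter, 2.63 (SE 0.68, adjusted p = 0.0248) without Control replicate 2 and 3.53 (SE 1.02, adjusted p = 0.0154) without Control replicate 1. In the fourth, without EC-Foxc-DKO replicate 1, it was 3.82 (SE 0.62, adjusted p = 0.662 by edgeR) and was not called. Neutrophil-like cells had no Il6 UMI, which at their depth allows up to 24.2, 58.7 and 181 CPM, and BEC-like cells had 6 UMIs in 3 cells.

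Over all kept cells Il6 was at 0.164, 1.02, 0.597 and 1.94 CPM, a log2 fold change of 1.56 (SE 1.25, adjusted p = 1.00 by edgeR). Il11, a gp130 cytokine linked to stromal and epithelial injury, gave 24 UMIs in 22 of 5615 cells, 10, 2, 8 and 4 per mouse, and no type held more than 7 of them (crypt cell-like cells). Lif gave 90 UMIs in 80 cells, of which 32 were in bottom enterocyte-like cells, each in a different cell. Bottom enterocyte-like levels of Lif were 1.63, 2.20, 0.851 and 1.012 CPM. Both EC-Foxc-DKO mice lay below both Control mice, with a log2 fold change of -0.82 (SE 0.66, adjusted p = 0.997 by edgeR). Over all kept cells the mice held 25, 5, 27 and 33 Lif UMIs, so the Control replicate 2 value rested on at most 5. Osm and Lif are neighbours in the genome, and their levels over the 22 named types had a Pearson r of 0.155, as a description. Lif had a mean of at most 4.25 CPM in any of these types, so that value says little.

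Genes with the most similar pattern were sought for each member with at least 50 UMIs, as the 3 highest Pearson correlations of log2(mean CPM + 10) over the 22 named types. They were Lpcat2, Pilra and Nlrp3 for Il1a (r = 0.993 to 0.987), Pilra, Lpcat2 and Il1a for Il1b (0.98 to 0.973), Trem3, Gm31718 and Mcemp1 for Il1r2 (0.983 to 0.982) and Sirpb1c, Serpinb8 and Fcgr4 for Osm (0.966 to 0.964). For Il6 they were Ppbp, Ccl24 and Ccl7 (0.972 to 0.969). Il18 was closest to Adgrg7, Slc51a and Cryl1 (0.942 to 0.931). Il1rn (Pira2, Cd300a and Clec4n, 0.876 to 0.874), Il33 (Tpcn1, Kcnn3 and Sema3d, 0.841 to 0.819) and Lif (Nsg2, Lrrc75b and Arhgef37, 0.684 to 0.638) had no gene as close. The mean level of Lif was at most 4.25 CPM in a named type, under the 10 CPM added to each level. Its correlations thus rested on few counts and do not describe a pattern. The types share libraries and these values carry no test.

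The receptor levels named here are those of stromal, endothelial, neural, immune and enteroendocrine cells. Other epithelial cells held receptor UMIs too, with 35 of Il1rap in crypt cell-like and 11 in bottom enterocyte-like cells. In bottom enterocyte-like cells 2 of the 6 IL-6 family receptors passed the filter. The fibroblast-like means of receptors include mice with few such cells, 2 in Control replicate 1 and 1 in EC-Foxc-DKO replicate 2. Il1r1, the signaling IL-1 receptor, was highest in fibroblast-like (83.9 ± 66.99 CPM, SD, n = 4) and BEC-like cells (76.5 ± 27.4). In the fibroblast-like cells of those mice it was at 0 and 134 CPM. Il1r1 had no UMI in macrophage-like or neutrophil-like cells. Its partner Il1rap was highest in neutrophil-like (349 ± 137, n = 3) and enteric glia-like cells (205 ± 130, n = 4). Osmr, the oncostatin M receptor, was steady in BEC-like cells at 307, 294, 328 and 289 CPM, with LEC-like cells at 335, 175 and 158, and had no UMI in the macrophage-like cells that held its ligand Osm. A count of 0 in macrophage-like cells allows up to 3.24, 8.58, 2.41 and 4.67 CPM in the 4 mice. Lifr was highest in BEC-like cells (434 ± 123).

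Il6st, the shared gp130 subunit, was present in fibroblast-like (621 ± 414 CPM), enteric glia-like (395 ± 28.7), smooth muscle/pericyte-like (346 ± 91.5) and BEC-like cells (343 ± 49.9), which did not differ beyond their spread. The smooth muscle/pericyte-like mean includes EC-Foxc-DKO replicate 2 with 2 cells, and the fibroblast-like means here carry the limit given above. Il6ra was at 169 ± 173 CPM in fibroblast-like (n = 4), 125.5 ± 49.7 in neutrophil-like (n = 3), 73.1 ± 20.6 in macrophage-like and 66.8 ± 19.7 in enteroendocrine cell-like cells (n = 4), which overlapped within their spread, and Il11ra1 was highest in fibroblast-like cells (241 ± 202). Il18r1 was highest in CD4+ T cell-like cells (124 ± 111) and its partner Il18rap in neutrophil-like cells (80.2 ± 40.9, n = 3). The CD4+ T cell-like mean of Il18r1 includes 279 CPM from 3 cells of Control replicate 1, against 131, 39.9 and 46.5 CPM in the other mice. Il1rl1, the IL-33 receptor, had at most 5 UMIs in a type.

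The wider pathway list held 31 receptors, inhibitors, related ligands and inflammasome genes. Il36a, Il36b, Il36g and Il36rn were absent from the features by these symbols, so they were not counted. Of the list, 20 genes passed the filter in at least 1 of 20 types, giving 99 values. None was called by edgeR, with 6 at an unadjusted p under 0.05, and none by DESeq2, with 2. Beside the shares of all genes given above, 2.44% were called in smooth muscle/pericyte-like, 1.05% in CD4+ T cell-like, 0.0734% in plasma cell-like and 0.0271% in germinal center B cell-like cells, and 0% in BEC-like, CD8+ T cell-like, enteric glia-like, enteroendocrine cell-like and follicular B cell-like cells. Those 6 were Casp4 in bottom enterocyte-like cells, Pycard in germinal center B cell-like cells, Il1rap and Lifr in macrophage-like cells, and Casp1 and Pycard in middle enterocyte-like cells. Lifr in macrophage-like cells stood at 37.8, 174.5, 28.1 and 14.02 CPM, a log2 fold change of -2.21 (SE 0.70, adjusted p = 0.999 by edgeR). Casp1 and Pycard, parts of the inflammasome that matures IL-1β and IL-18, had log2 fold changes of -0.78 and -0.74 in middle enterocyte-like cells, which did not pass (both with adjusted p = 1.00 by edgeR).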

How the data were processed

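The 4 libraries were sequenced from dissociated distal jejunum. Counts of UMIs per gene and barcode are used as the authors deposited them, 1 matrix a mouse, made with Cell Ranger 4.0.0 on mm10 by the submitters' processing notes. The deposited joined table of the 4 libraries was used only for its list of 18407 genes, over which the mitochondrial share was taken. Cells with at most 10% mitochondrial counts were kept. They were clustered with scanpy 1.11.5 (2903 variable genes, 15 components, 15 neighbours, Leiden resolution 0.5), without the 10 members and the 31 pathway genes. A marker counted as detected at 2 times the mean of other cells and in 10% of cells, and a name needed 3, a rule set after the clusters were seen. Of the 22 clusters, 4 matched several marker lists or had leading genes of another list. The cells of each were clustered again on their own, and the parts were then named. Scrublet marked 13 cells (0.232%), too few to rely on, so doublets stayed in and 292 were removed in an alternative.

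Counts were summed per mouse and type (at least 5 cells, at least 3 mice) and tested with edgeR 4.0.16 (filterByExpr, TMM, quasi-likelihood, R 4.3.3), and with DESeq2 1.42.0 as an alternative. The edgeR step was tested on simulated data. The SE given for an edgeR value is an approximation, the size of the log2 fold change divided by the square root of the test's F statistic. A share of 0 allows up to 3 counts. Levels between genes are not ranked. Total UMIs per mouse in kept cells were 30487782, 3918909, 28466972 and 23144474. The labels give replicate numbers only, so p-values measure the spread between these samples, which may be in part technical. The members, lists and marker names were chosen with earlier results of these data known, and all 10 members are named, with the pathway list by counts and the receptors by value, and the 3 most similar genes for each member with at least 50 UMIs.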

Additional observations from a re-analysis of the deposited data

Results flagged for a closer look

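In 4 pairs of cell types every EC-Foxc-DKO mouse lay on one side of every Control mouse in the first type and on the other side in the second, among mice with at least 5 cells. These differences were not tested, and both types of every pair had only 1 Control or only 1 EC-Foxc-DKO mouse. A lone mouse often falls outside the range of the other mice, so such a pattern is easily met. The share of all genes with such a pattern was not counted, so the 4 pairs have no background to be read against. For Il33 the difference of mean levels, EC-Foxc-DKO minus Control, was -475 CPM in LEC-like cells against 40.2 in Sprr-high and 44.6 in goblet cell-like cells, the last from 24 UMIs. Of those 24 UMIs, 1 cell of EC-Foxc-DKO replicate 2 held 16. For Il18 it was -31.8 CPM in goblet cell-like against 69.4 in Sprr-high cells. The goblet cell-like cells also held Paneth cell markers. These summed to 690 CPM in Control replicate 1, 2958 in EC-Foxc-DKO replicate 1 and 62189 in EC-Foxc-DKO replicate 2. The part of these markers in the Il18 and Il33 values was not tested. For Il1rn it was 181 CPM in plasmacytoid dendritic cell-like against -26.1 in Sprr-high cells. The plasmacytoid dendritic cell-like value came from 18 UMIs in 4 cells, and 1 cell of EC-Foxc-DKO replicate 2 held 12 of them.

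The barcodes above the mitochondrial limit, which enter no comparison, held more of 8 members in EC-Foxc-DKO replicate 2 than in either Control mouse, with counting intervals that did not overlap. These intervals cover counting error only. The search looked only for EC-Foxc-DKO levels above both Control mice, so lower levels could not be listed. The share of all genes with such a separation was not counted, so the count of 8 has no background to be read against. The levels there were 199.9 CPM for Il1b, 156 for Il18, 32.5 for Il1rn, 21.9 for Il33, 20.3 for Il1r2, 19.6 for Osm, 3.59 for Il6 and 3.52 for Il1a. In the Control mice the same barcodes held 14.8 and 40.6 CPM of Il1b, and in EC-Foxc-DKO replicate 1 13.4. The kept cells of EC-Foxc-DKO replicate 2 held 88.3 CPM of Il1b, so over all its barcodes it had the most (133 CPM, against 77.2, 59.8 and 51.6 in the other mice), while over kept cells it had the least.

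With the limit raised to 20%, there were 31 neutrophil-like cells in EC-Foxc-DKO replicate 2 in place of 6, and 33, 1 and 22 in the other mice in place of 30, 0 and 20. The part of the limit in the Il1b levels of that mouse was not tested further.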

How the results depend on the processing

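Of the log2 fold changes under alternatives, 330 were unchanged, 30 reversed, 8 moved, 8 gained a call and 6 lost it. For a tested value, unchanged means the same direction and side of the threshold. For a ratio of 2 mice, which has no test, unchanged means close to the main value and moved means further from it. The Il33 call in LEC-like cells became 0 calls with DESeq2, with no filter and with a mitochondrial limit of 20%. The Il1b call in plasmacytoid dendritic cell-like cells became 0 calls with DESeq2, with all variable genes in the clustering, with the mitochondrial share over all features and with the 20% limit, where no member was tested. Neither could be fitted with at least 10 cells per mouse, and LEC-like cells could not be fitted with doublets removed, so the Il33 call has no value there. With no filter 1 member was called in each of macrophage-like (Il6), Sprr-high (Il33) and tuft cell-like cells (Il1b), and with doublets removed 1 in goblet cell-like cells (Il33). The cause was not tested for any of these. Leaving out each mouse gave 0 to 2 members called in bottom enterocyte-like and 0 to 4 in macrophage-like cells, the highest without EC-Foxc-DKO replicate 1 (9.25% of all genes called) and without Control replicate 1 (5.76%). These fits take the spread of the lone mouse to be that of the 2 mice opposite, and where only 2 mice remained the ratio has no test. The mean share of a mouse's Il18 UMIs in bottom enterocyte-like cells was 70.1%, 78.8% at a clustering resolution of 1.0 and 81.8% with the 20% limit.

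Reversed log2 fold changes with the 20% limit were 0.0778 for Il18 in goblet cell-like cells, -0.0619 for Il18 in middle enterocyte-like cells and 0.0252 for Il1b over all kept cells. With the mitochondrial share over all features they were 0.29 for Il18 in macrophage-like cells and, in middle enterocyte-like cells, -0.12 for Il18 and -0.14 for Il33. In the latter Il33 was -0.26 with at least 10 cells per mouse and -0.0654 with all variable genes, and Il1rn in neutrophil-like cells was -0.0618 with no filter.

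With each mouse left out in turn, ranges that crossed 0 in bottom enterocyte-like cells were -0.13 to 0.69 (Il18) and -0.39 to 1.46 (Il33). In macrophage-like cells they were -0.40 to 0.07435 (Il18), -0.70 to 0.80 (Il1b), -0.24 to 3.51 (Il1rn) and -0.16 to 2.02 (Osm). In middle enterocyte-like cells they were -0.03045 to 0.88 (Il18) and -0.26 to 1.46 (Il33), and in neutrophil-like cells -1.01 to 0.33 (Il1b), -0.31 to 0.77 (Il1rn) and -0.30 to 0.98 (Osm). Over all kept cells they were -0.40 to 1.24 (Il18), -0.0299 to 1.17 (Il1a), -0.53 to 2.95 (Il1r2), -0.56 to 3.12 (Il1rn), -0.91 to 1.28 (Il33), -0.13 to 0.65 (Lif) and -0.10 to 1.06 (Osm).

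The replicate numbers are shared only as numbers: same-numbered mice did not deviate together (correlation -0.383 over 7818 genes). A fit with the replicate block called 0 members in each of the 6 fits with 4 mice. Il1r2 in macrophage-like cells was 1.504 (SE 0.54) and Il18 in bottom enterocyte-like cells 0.28 (SE 0.29) on the log2 scale. Few cells per mouse limit the precision of the neutrophil-like, LEC-like and plasmacytoid dendritic cell-like values.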
